A study of Mus musculus with 4 samples.

Results

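Cells with transcripts of terminal effector markers, *Klrg1*, *Cx3cr1* and *Zeb2* among them, are called terminal effector CD8+ T cells here. They were taken from the GP33 tetramer-positive splenocytes of mixed bone marrow chimeras on day 8 after infection with LCMV Armstrong. The rule asked for a sum over 5 markers and not for each of them, and 3287 of the 24893 cells met it, or 13.2%. Of these, 556 of 4941 cells were in library WT1, 552 of 8092 in WT2, 1092 of 5366 in KO1 and 1087 of 6494 in KO2. Members were chosen by their own transcripts. The unique molecular identifiers (UMIs, 1 per captured molecule) of *Klrg1*, *Cx3cr1*, *Zeb2*, *S1pr5* and *Klre1* summed to at least 3, and those of *Il7r*, *Tcf7* and *Ccr7* to 0. A member also had at least 1 UMI of *Cd8a* or *Cd8b1*, none of *Cd79a* or *Ms4a1*, at most 1 of *Csf1r* and *C1qb*, and at most 1 of *Mki67*, *Birc5* and *Top2a*. These 17 genes chose the cells, so their levels are given as a description and none of them was tested.

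Each of 2 chimeras gave a WT (CD45.1) and a *Bcl3-/-* (CD45.2) library, sorted from the same animal by the CD45 allele, so that WT1 and KO1 come from chimera 1, WT2 and KO2 from chimera 2, and n = 2 libraries per genotype. The hosts were *Rag1-/-* mice that received both kinds of marrow after sub-lethal irradiation, so all 4 libraries developed in irradiated, reconstituted animals that make no mature T or B cells of their own. *Bcl3-/-* here is a germline deletion carried by the marrow, and the age of the animals is not given in the sources used here. Members held a median of 3584.5 (WT1), 2117.5 (WT2), 3515 (KO1) and 2852 UMIs (KO2), and together 2182769, 1363471, 4226504 and 3439776 UMIs in the same order. A median of 2.38% to 2.53% of a member's UMIs was mitochondrial. WT2 was the shallowest library, which matters for a rule that counts UMIs.

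During an acute viral infection, activated CD8+ T cells split into short-lived terminal effectors, which bear the inhibitory receptor KLRG1 and kill infected cells, and into memory precursors, which keep the IL-7 receptor and the transcription factor TCF-1. The transcription factors T-bet (*Tbx21*) and ZEB2 drive the terminal branch, CX3CR1 is the fractalkine receptor of cells that patrol the blood, and S1PR5 is a sphingosine-1-phosphate receptor that lets cells leave tissues. The product of *Bcl3* resembles the inhibitors of NF-kappaB in its ankyrin repeats but joins p50 or p52 dimers on DNA, where it can raise or lower transcription, and the study asked how its absence shifts this differentiation within the CD8+ T cell itself.

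*Gzma* (ENSMUSG00000023132; chromosome 13, 113093825 to 113100981, minus strand, GRCm38), the gene of the serine protease granzyme A, was the gene outside the rule with the largest excess in the members. Its upstream sequence is shown with those of *S1pr5* and *Cx3cr1*, a pair of the genes that chose the cells, because these transcripts were high in the same cells. Each sequence covers the 250 bases before the start annotated by RefSeq (GRCm38.p6), 5′ to 3′ on the gene's minus strand, at chr13:113100982-113101231 (*Gzma*), chr9:21248444-21248693 (*S1pr5*) and chr9:120068297-120068546 (*Cx3cr1*). Capitals mark the E-box CAGGTG or its reverse CACCTG, which ZEB proteins can bind.
Gzma: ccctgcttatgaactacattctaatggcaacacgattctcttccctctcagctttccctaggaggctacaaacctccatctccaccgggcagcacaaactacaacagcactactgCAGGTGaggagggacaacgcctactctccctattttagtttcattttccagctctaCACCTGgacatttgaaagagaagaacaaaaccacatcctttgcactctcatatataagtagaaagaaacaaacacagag
S1pr5: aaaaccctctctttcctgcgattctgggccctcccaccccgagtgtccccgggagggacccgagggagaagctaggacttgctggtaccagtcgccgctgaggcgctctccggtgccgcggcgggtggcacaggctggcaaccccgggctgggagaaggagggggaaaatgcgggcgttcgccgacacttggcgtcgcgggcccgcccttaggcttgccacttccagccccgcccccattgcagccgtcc
Cx3cr1: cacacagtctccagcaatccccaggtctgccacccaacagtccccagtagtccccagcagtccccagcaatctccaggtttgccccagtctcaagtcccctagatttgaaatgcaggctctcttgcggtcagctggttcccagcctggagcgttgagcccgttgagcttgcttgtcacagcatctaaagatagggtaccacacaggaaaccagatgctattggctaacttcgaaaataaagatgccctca
The E-box occurred at 2 places in the window of *Gzma* and in none of the 8 other windows of *S1pr5*, *Cx3cr1*, *Zeb2* and *Klre1* starts in the table, which holds no entry for *Klrg1*. It was present, on either strand, in 17.2% of 32851 windows of this length. The T-box string AGGTGTGA, which shares the letters AGGTG with the E-box, was in none of these windows and in 1.12% of all. A match in a window is a description of letters only.

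The markers that chose the members stood as follows, as counts scaled to the same total of UMIs for every library (CPM), summed over its members. *Klrg1* was at 663 CPM in WT1 and 829 CPM in WT2, and at 634 CPM in KO1 and 698 CPM in KO2. It lay between 87.1 and 112 CPM in marker-low CD8+ T cells, which are the 13200 cells that met every other part of the rule and had a marker sum of 0 to 2. *Cx3cr1* was at 177, 227, 263 and 249 CPM in the same order, *Zeb2* at 173, 221, 205 and 257 CPM, *S1pr5* at 91.6, 127, 171 and 208 CPM, and *Klre1*, a lectin-like receptor first known from NK cells, at 72.4, 226, 102 and 98.3 CPM. All 5 together summed to 1177 CPM in WT1, 1375 in KO1, 1629 in WT2 and 1511 in KO2, and no difference between genotypes is read from genes that chose the cells. Only 1 of the 5 markers was found in 23.0% of the WT1 and 20.8% of the WT2 members, and in 13.3% of the KO1 and 12% of the KO2 members. It was *Klrg1* in most of these cells (20.7%, 16.8%, 11.8% and 10.1% of members). Exactly 2 of the markers were found in 38.3% (WT1), 43.5% (WT2), 32.7% (KO1) and 37.7% (KO2) of members. Among cells with a marker sum of at least 3, the rest of the rule kept 66.2% (WT1), 75.2% (WT2), 69.4% (KO1) and 78.0% (KO2). The most frequent causes of loss were a UMI of *Il7r*, *Tcf7* or *Ccr7* (8.45% to 18.3%) and more than 1 UMI of the cycling genes (8.86% to 14.5%).

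The members were T cells by their defining transcripts. *Cd3d* stood between 1270 and 1442 CPM, *Cd3g* between 1147 and 1389 CPM and *Lck* between 1274 and 1463 CPM. *Ncr1*, the natural cytotoxicity receptor of NK cells, was at 5.04, 3.67, 0 and 1.74 CPM in WT1, WT2, KO1 and KO2, and *Cd4* at 0.733 CPM or less. The 6 NK cell markers summed to 212, 293, 193 and 168 CPM in members and to 193, 184, 301 and 175 CPM in marker-low cells, and *Fcer1g* was the most abundant of them in members. B cell markers, with *Cd74* the most abundant, summed to 442, 406, 513 and 567 CPM in members. In marker-low cells they summed to 489, 456, 567 and 552 CPM. Myeloid markers summed to 726, 854, 1016 and 838 CPM in members, and erythroid and platelet markers to 29.4 CPM or less. Barcodes that were also a cell of another library made up 71 of the 3287 members.

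The first question was which other transcripts set these cells apart from the marker-low CD8+ T cells of their own library. Since both classes were cut from the same transcriptomes, this is a description without a test. *Gzma* was at 3626 and 5552 CPM in the WT1 and WT2 members and at 5214 and 6290 CPM in the KO1 and KO2 members, against 614, 1031, 795 and 1021 CPM in marker-low cells. All 4 libraries showed the excess, which was 5.98-fold on average (5.38-fold to 6.55-fold, folds on CPM + 1). *Klrb1c*, which encodes NK1.1, was 3.35-fold higher (3.08 to 3.55), *As3mt*, an arsenite methyltransferase, 3.28-fold (3.08 to 3.78), and *Borcs7*, a subunit of the lysosome-positioning BORC complex and a neighbour of *As3mt* on chromosome 19, 2.2-fold (1.99 to 2.56). *Il18rap*, a chain of the IL-18 receptor, was 1.63-fold higher (1.5 to 1.78) and the chemokine gene *Ccl5* 1.53-fold (1.40 to 1.70).

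Among 5058 genes outside the rule with at least 20 CPM in either class, 12 (0.237%) were at least 1.5-fold higher in members in all 4 libraries and 15 (0.297%) at least 1.5-fold lower. Without WT2 these counts were 18 and 31. In either direction and at any size, 12.7% of the genes were higher and 21.6% lower in all 4 libraries, which is the background for the counts of lists below. The remaining genes of the 15 with the largest least excess and at least 50 CPM were *Esm1* (2.14-fold on average), *Ifitm10* (1.83), *Acss2* (1.74), *Racgap1* (1.64), *Klf3* (1.63), *Snx10* (1.54), *Klrc1* (1.52), *Sgk1* (1.5) and *Jak1* (1.48). *Klf3* is a Kruppel-like repressor, *Sgk1* a kinase downstream of PI3K and *Jak1* the kinase shared by many cytokine receptors. All of the 3′ end of *Klrc1*, which encodes NKG2A, is also found in transcripts of another gene, so its reads may be divided between relatives.

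**Figure D1:**
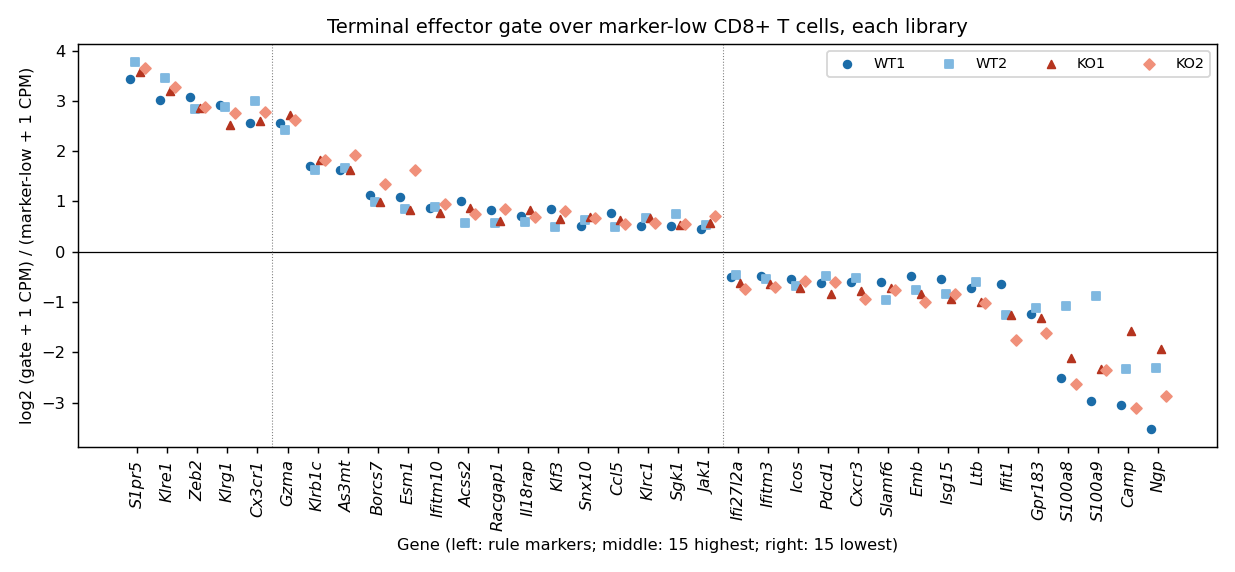
Log2 ratio of terminal effector over marker-low CD8+ T cells (CPM + 1 in each, y axis) for single genes (x axis), with 1 point per library. The rule's 5 markers stand at the left, and *Gzma* leads the other genes with all 4 libraries above 5.38-fold, while *S100a8*, *S100a9*, *Camp* and *Ngp* are the lowest and the most scattered.

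Among the 15 genes with the lowest ratios to marker-low cells, *Ltb*, which encodes lymphotoxin beta, was at 539, 816, 329 and 453 CPM in the members of WT1, WT2, KO1 and KO2, and at 894, 1233, 663 and 919 CPM in their marker-low cells. The ratio was 0.56 on average (0.49 to 0.66). *Slamf6*, a receptor of memory-like T cells, had a mean ratio of 0.59, *Cxcr3*, a chemokine receptor that guides effector T cells to inflamed tissue, 0.61, the costimulatory receptor *Icos* 0.65, *Pdcd1*, which encodes PD-1, 0.65, the adhesion protein gene *Emb* 0.59 and *Gpr183*, an oxysterol receptor, 0.40. Interferon-stimulated genes were lower as well, with mean ratios of 0.43 (*Ifit1*), 0.58 (*Isg15*), 0.66 (*Ifitm3*) and 0.67 (*Ifi27l2a*). The neutrophil granule genes *Ngp* (0.16) and *Camp* (0.18) and the myeloid genes *S100a9* (0.23) and *S100a8* (0.24) were the lowest of all 15. The rule bars macrophage genes and no neutrophil gene. The 8 myeloid markers summed to 726, 854, 1016 and 838 CPM in members and to 2276, 1102, 2993 and 2594 CPM in marker-low cells, with *Lyz2* the most abundant in members, and their part in the ratios of other genes was not tested.

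The gene lists were counted in the same way. Of 12 cytotoxic granule genes, 5 were higher in members in all 4 libraries, among them *Gzma*, *Gzmb* (1.15-fold, 1.12 to 1.21) and *Nkg7* (1.13-fold, 1.11 to 1.14), and 3 were lower. *Prf1*, the gene of the pore-forming protein perforin, was 1.29-fold higher (1.05 to 1.59). Of 9 effector transcription factors at 20 CPM or more, 5 were higher and 1 was lower. *Klf2*, which keeps *S1pr1* and other trafficking genes on, was 1.47-fold higher (1.37 to 1.58), *Tbx21* 1.38-fold (1.25 to 1.54), and *Id2* was the lower gene (0.88, 0.83 to 0.99). NK receptors were higher for 6 of 7 genes, with *Klrk1* (NKG2D) 1.39-fold and *Klrd1* (CD94) 1.38-fold. *Klra3*, a gene of the Ly49 receptor family, was 4.66-fold higher (2.88 to 8.10) at under 50 CPM on average. None of 11 memory and quiescence genes was higher in all 4 libraries and 7 were lower, including *Cd27* (0.75) and *Cd28* (0.74) besides *Ltb*, *Slamf6* and *Cxcr3*. For 12 interferon-stimulated genes the counts were 0 and 11. The adhesion and migration list was even, with 5 higher and 5 lower of 15. *Itgam*, which encodes CD11b, was 1.83-fold higher and *Itgb2*, its partner chain, 1.38-fold, while *Cxcr6* was lower (0.65). Of 8 NF-kappaB and IkappaB genes none was higher and 5 were lower, of 10 glycolysis genes none and 6, of 10 cytokine receptors 2 and 6, of 4 genes of the inhibitory receptor and *Tox* list 1 and 3, of 14 S100, annexin and cytoskeleton genes 6 and 3, of 5 chemokine and cytokine genes 2 and 0, of 5 immediate early genes 1 and 0, and of 7 T cell identity genes 1 and 3. The median log2 ratio was 0.60 over the NK receptors, 0.24 over the effector transcription factors, 0.11 over the cytotoxic granule genes, −0.30 over the memory and quiescence genes, −0.50 over the interferon-stimulated genes, −0.25 over the NF-kappaB and IkappaB genes, −0.17 over the cytokine receptors and −0.09 over the glycolysis genes, against −0.03 over all 5058 genes.

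Across CD8+ T cells of a library thinned to 1000 UMIs each, the detection of *Gzma* had the largest correlation with the marker sum of either sign among 6093 genes (Pearson's r of 0.19 and 0.21 in WT1 and WT2, 0.28 and 0.30 in KO1 and KO2). The next genes with a positive correlation were *Klf2*, *Klrb1c*, *As3mt*, *Borcs7*, *Jak1*, *Ifitm10*, *Klrc1*, *H2afz* and *Rap1b*, with a mean r of 0.15 down to 0.084. The largest negative values were those of *Ly6e* (mean r of −0.16), *Ltb* (−0.15), *Cxcr6* (−0.13) and *Cxcr3* (−0.11). These points share a library and are sparse counts, so values of this size are a description only.

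Within the gate, several of these genes differed along the marker sum. *Gzma* was at 2375 CPM in WT1 members with a sum of 3, at 3441 CPM with 4 to 5, at 4180 CPM with 6 to 8 and at 10461 CPM with 9 or more. In KO2 the levels were 3761, 6112, 8752 and 12542 CPM. From a sum of 3 to one of 6 to 8, *Gzma* was 1.76-fold higher in WT1, 2.16-fold in WT2, 2.86-fold in KO1 and 2.33-fold in KO2. *Klf2* was 1.16-fold to 1.25-fold and *Ccl5* 1.19-fold to 1.35-fold higher over the same step. *Klrc1*, *Il18rap* and *Itgb2* were higher at 6 to 8 in 3 libraries but not in WT2, where the folds were 0.84, 0.93 and 0.98. *Ltb* went the other way, being 1.33-fold (WT1), 1.22-fold (WT2), 1.63-fold (KO1) and 1.46-fold (KO2) higher at a sum of 3 than at 6 to 8, and *Cxcr3* was 1.29-fold to 2.00-fold higher at a sum of 3. Just outside the gate, at a sum of 2, *Gzma* stood at 1356, 2721, 1389 and 2489 CPM in WT1, WT2, KO1 and KO2, and just inside it, at a sum of 3, at 2375, 4252, 2355 and 3761 CPM. The top class of WT2 held 7 cells and is not used here.

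**Figure D2:**
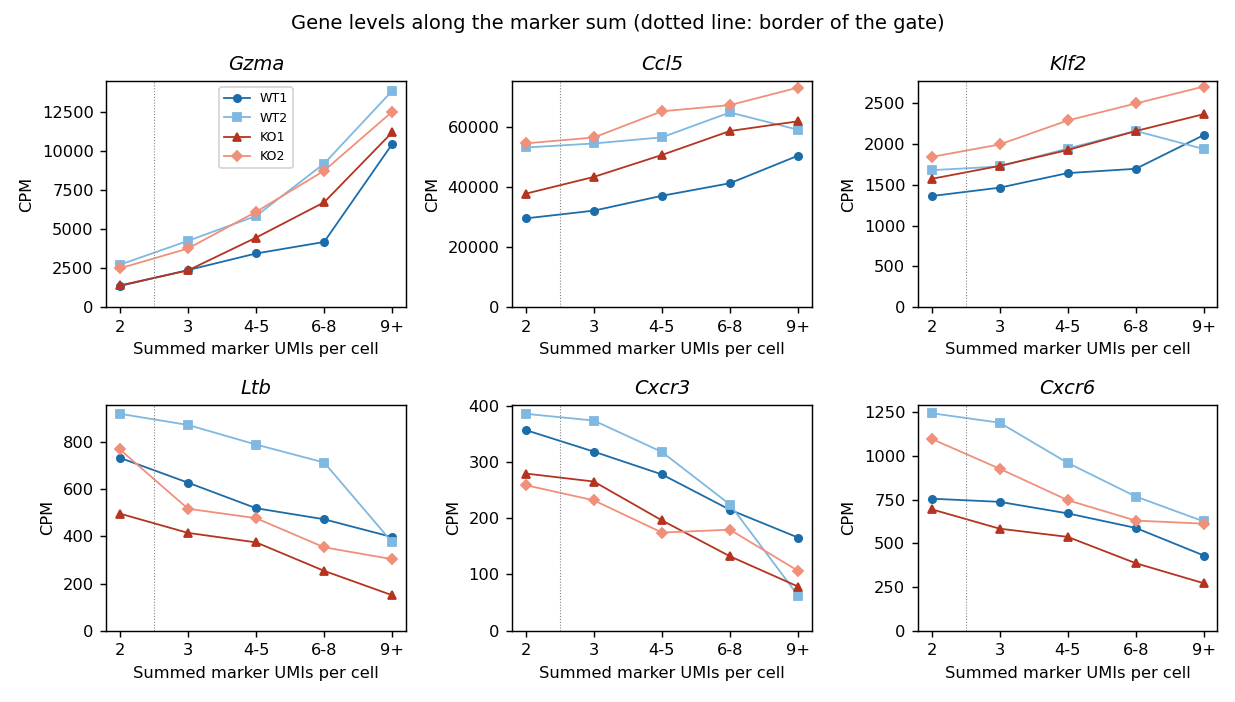
Levels of 6 genes (y axis, CPM from 0) in cells grouped by the summed UMIs of the 5 markers (x axis), with 1 line per library. *Gzma* climbs in all 4 libraries from a sum of 2 to 6 to 8, *Ccl5* and *Klf2* climb less, and *Ltb*, *Cxcr3* and *Cxcr6* decline, the last point of WT2 resting on 7 cells.

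The study compared WT and *Bcl3-/-* cells of the same host. In chimera 1, 11.3% of WT cells (10.4% to 12.2%) and 20.4% of *Bcl3-/-* cells (19.3% to 21.5%) lay in the gate, and in chimera 2 the shares were 6.82% (6.28% to 7.39%) and 16.7% (15.8% to 17.7%). The ranges in brackets are exact binomial intervals of 95%, which cover the counting of cells and nothing else. Both *Bcl3-/-* libraries were above both WT libraries. WT libraries averaged 9.04% ± 3.13 (SD, n = 2) and *Bcl3-/-* libraries 18.5% ± 2.55 (SD, n = 2), a difference of 9.51 percentage points, larger than the spread between libraries. It was 9.10 points in chimera 1 and 9.92 in chimera 2. Since 2 libraries against 2 can reach no lower value, the exact permutation p was 0.333 (2-sided). With every cell thinned to 1000 UMIs and a marker sum of at least 1, the shares were 17.5% ± 0.115 (SD, n = 2) and 26.2% ± 2.2 (SD, n = 2). At a sum of at least 3 after the same thinning, they were 1.70% ± 0.131 (SD, n = 2) and 4.19% ± 0.419 (SD, n = 2). The difference was then 2.49 percentage points.

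**Figure D3:**
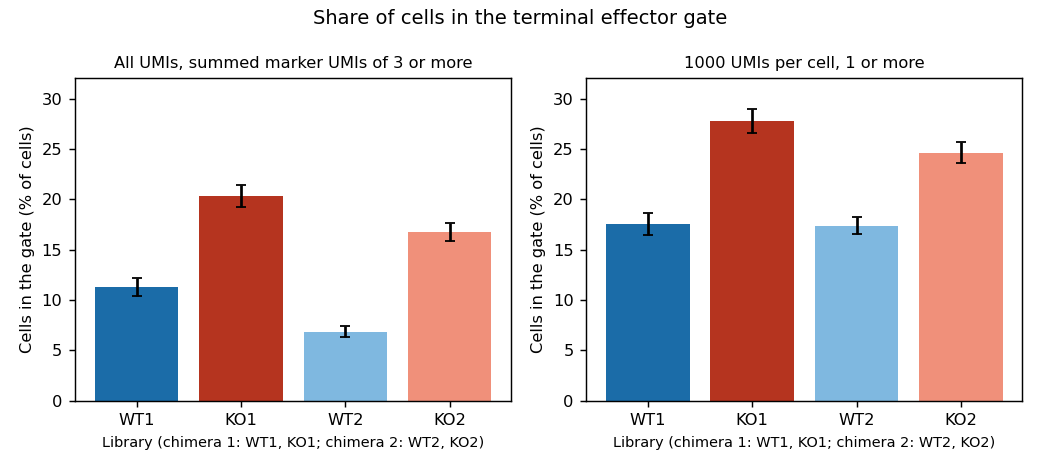
Share of cells in the terminal effector gate (y axis, % of the cells of a library) in the 4 libraries (x axis), with all UMIs at the left and after thinning to 1000 UMIs per cell, with at least 1 marker UMI, at the right. Bars are shares, error bars are exact 95% binomial intervals, and in both panels each *Bcl3-/-* bar stands above the WT bar of its chimera by 7.25 to 10.2 percentage points.

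*Bcl3* itself (ENSMUSG00000053175; chromosome 7, 19808462 to 19822770, minus strand) had 20.6 CPM in WT1 members and 19.2 CPM in KO1 members, whereas chimera 2 had 115 CPM (WT2) and 75.9 CPM (KO2). The chimeras differed more than the genotypes. Relative to WT, the log2 fold change was −0.45 (standard error 0.59, edgeR adjusted p = 0.858) and, with the chimera as a replicate block, −0.46 (adjusted p = 0.0918). Which part of the gene is deleted is not given in the sources used here, and 3′ counts from outside that part check no label.

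Between the genotypes, 8739 genes outside the rule were tested on the summed UMIs of each library's members by the quasi-likelihood test of edgeR. With the adjusted p held to 0.05, 30 genes (0.343%) rose and 15 (0.172%) fell in *Bcl3-/-* terminal effectors, against 895 whose raw p was below 0.05. The direction was shared by the chimeras for each of these 45 genes. Members with a marker sum of 6 or more made up 24.8% (WT1), 12.3% (WT2), 38.0% (KO1) and 27.7% (KO2). The part of this shift in the differences between genotypes was not tested. With the replicate block, 192 genes were higher (2.20%) and 228 lower (2.61%), with all 45 among them. Leaving out WT1 gave 91 calls, leaving out KO1 173 and leaving out KO2 125, and 25 of the 45 genes were called whichever library was left out. In the marker-low cells, 16 of 10391 genes were called (0.154%), 12 of which were also called in the members. Of the 45 genes called in members, 44 had the same direction in marker-low cells and 42 were called there with the block.

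*Prf1* (chromosome 10, 61297833 to 61304680, plus strand) fell in *Bcl3-/-* terminal effectors. It was at 81.5 CPM in WT1 and 53.5 CPM in WT2, against 22 CPM in KO1 and 21.8 CPM in KO2, so that the genotypes did not overlap. Within classes of the marker sum, its log2 ratio between genotypes was −2.02 in chimera 1 and −1.64 in chimera 2 at a sum of 3, and −1.34 and 0.22 at 6 to 8, where WT2 held 61 cells. Over all members, the log2 fold change was −1.67 (standard error 0.20, adjusted p = 0.00153 from edgeR). *Prf1* was lower in *Bcl3-/-* marker-low cells too, at 50.9 (WT1), 36.2 (WT2), 19.0 (KO1) and 20.8 CPM (KO2). The log2 fold change there was −1.14 (adjusted p = 0.108 from edgeR and 0.00319 with the block). The difference of the effects between the classes was −0.50 on the log2 scale (adjusted p = 0.572 from edgeR). Of the 12 cytotoxic granule genes tested, *Prf1* was the one called. With the replicate block 5 were lower, namely *Prf1*, *Gzmb* (log2 fold change −0.32), *Gzmk* (−0.31), *Ctsw* (−0.40) and the granzyme B inhibitor *Serpinb9* (−0.36), and 1 was higher, *Gzma* (0.34, adjusted p = 0.00162 from edgeR, and 0.651 without the block). The median log2 fold change of the 12 was −0.29, against 0.01 over all tested genes. Among members with a marker sum of 3 the log2 ratio of *Gzma* between genotypes was −0.01 in chimera 1 and −0.18 in chimera 2, and at 6 to 8 it was 0.69 and −0.07.

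Interferon-related genes were among the falls. *Gbp6*, a guanylate-binding protein gene, was at 42.6 and 41.8 CPM in WT1 and WT2 and at 9.46 and 8.72 CPM in KO1 and KO2 (log2 fold change −2.22, standard error 0.21, adjusted p = 0.000288 from edgeR). All of the 3′ end of this *Gbp6* gene is shared with another gene. *Gbp6* was also called in marker-low cells (log2 fold change −1.59, adjusted p = 0.0299 from edgeR). *Igtp*, an interferon-induced GTPase, had a log2 fold change of −0.96 (adjusted p = 0.00258 from edgeR) and *Ifitm1* one of −1.15 (adjusted p = 0.000898 from edgeR). Of the list of interferon-stimulated genes, 12 of the 13 tested were lower in both chimeras, as were 28.7% of all tested genes. Of these, 11 of the 13 were lower with the block, among them *Ifit1* (log2 fold change −1.02), *Isg15* (−0.65), *Ifi27l2a* (−0.79) and *Gbp2* (−0.52). Their median log2 fold change was −0.56 in the members and −0.36 in marker-low cells, where 6 of the 13 were lower with the block, as were 1.33% of all genes tested there. The direct test of the difference between the classes, given further on, called 1 of the 13 as lower in terminal effectors.

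**Figure D4:**
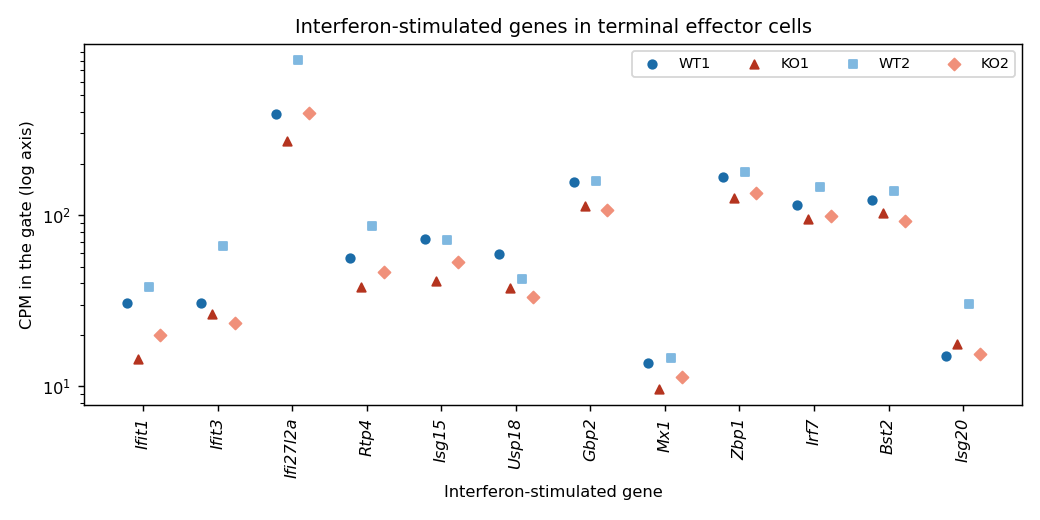
Levels of 12 tested interferon-stimulated genes in terminal effector cells (y axis, CPM on a log axis) by gene (x axis), with 1 point per library and the WT and *Bcl3-/-* libraries of a chimera side by side. Each *Bcl3-/-* point lies under its WT partner for 11 of the 12 genes, the other being *Isg20*, which was at 15.1 CPM in WT1 and 17.7 CPM in KO1.

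Receptors and signalling genes followed. *Lag3*, an inhibitory receptor, was at 131 and 126 CPM in WT1 and WT2 and at 73.1 and 69.5 CPM in KO1 and KO2 (log2 fold change −0.86, adjusted p = 0.00935 from edgeR). *Cxcr3* was at 272 and 331 CPM in WT and at 186 and 191 CPM in *Bcl3-/-* (−0.68, adjusted p = 0.0341 from edgeR, 0.153 without WT2). *Ly6a*, which encodes Sca-1, went from 1088 and 1248 CPM to 680 and 665 CPM (−0.80, adjusted p = 0.0143 from edgeR, 0.0797 without WT2). *Jun*, a subunit of AP-1, went from 20.2 and 18.3 CPM to 5.68 and 4.65 CPM (−1.90, adjusted p = 0.0143 from edgeR, 0.0587 without WT1 and 0.0549 in DESeq2). *Jak3*, the kinase of the common gamma chain, fell by 0.91 on the log2 scale (adjusted p = 0.0346 from edgeR, 0.197 without WT1, 0.0501 without the deepest cells and 0.389 in DESeq2). The serine protease inhibitor gene *Serpina3g* fell by 1.27 (adjusted p = 0.0433 from edgeR, 0.0797 without WT2 and 0.0603 without barcodes shared between libraries). Falls were also called for *Hist1h2ap*, *Chil3* and *Pglyrp1*. The call of *Pglyrp1* was lost in edgeR without WT1 (adjusted p = 0.0760), WT2 (0.133) or KO2 (0.117). That of *Chil3* was lost without WT1 (adjusted p = 0.143 in edgeR), without the deepest cells (0.0627) and in DESeq2 (0.0828). All of the 3′ end of *Hist1h2ap* is shared with other genes. *Chil3* is a myeloid gene, whose values of 44.0, 30.1, 14.7 and 15.4 CPM stood beside myeloid marker sums of 726, 854, 1016 and 838 CPM. Its fall was also called in marker-low cells (log2 fold change −1.79, adjusted p = 0.00553 from edgeR).

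Among the rises, *Mir142hg* (chromosome 11, 87755577 to 87757270, plus strand), the noncoding host transcript of miR-142, was at 16.5 and 14.7 CPM in WT1 and WT2 and at 68.6 and 86.6 CPM in KO1 and KO2 (log2 fold change 2.28, standard error 0.18, adjusted p = 0.000154 from edgeR). It was called in marker-low cells too (2.57, adjusted p = 0.00159 from edgeR). *Cd3e*, a chain of the T cell receptor complex, was at 566 and 439 CPM in WT and at 882 and 981 CPM in *Bcl3-/-* (0.87, adjusted p = 0.0179 from edgeR, 0.172 without WT2), while the other 6 tested T cell identity genes had log2 fold changes of −0.19 to 0.02. *Zfp36l2*, an RNA-binding protein of AU-rich messages, rose by 1.31 on the log2 scale and *Bin2*, a membrane-curving protein gene of blood cells, by 1.13, and both calls held whichever library was left out. *Mthfs*, an enzyme of folate metabolism, rose by 1.75, *Cdk2ap1* by 1.74 and *Rnaset2a* by 1.81. The other 6 of the 10 largest rises at 20 CPM or more were the noncoding or predicted genes *AY036118*, *Gm12840*, *Gm6133*, *Gm26917* and *Gm42418* and the pseudogene *Rps26-ps1*. *Gm26917*, *Gm42418* and *AY036118* lie next to each other on chromosome 17 (39843013 to 39848788). *AY036118* overlaps *Gm42418* on the other strand. Whether their rises are separate signals was not tested. More than 50% of the 3′ end was shared with transcripts of other genes for 10 of the 30 rises and 3 of the 15 falls, so that these counts may be divided between copies. Among these rises were *Rnaset2a* and *AY036118* (100% each), *Rps26-ps1* (93.7%) and *Cdk2ap1* (92.7%).

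**Figure D5:**
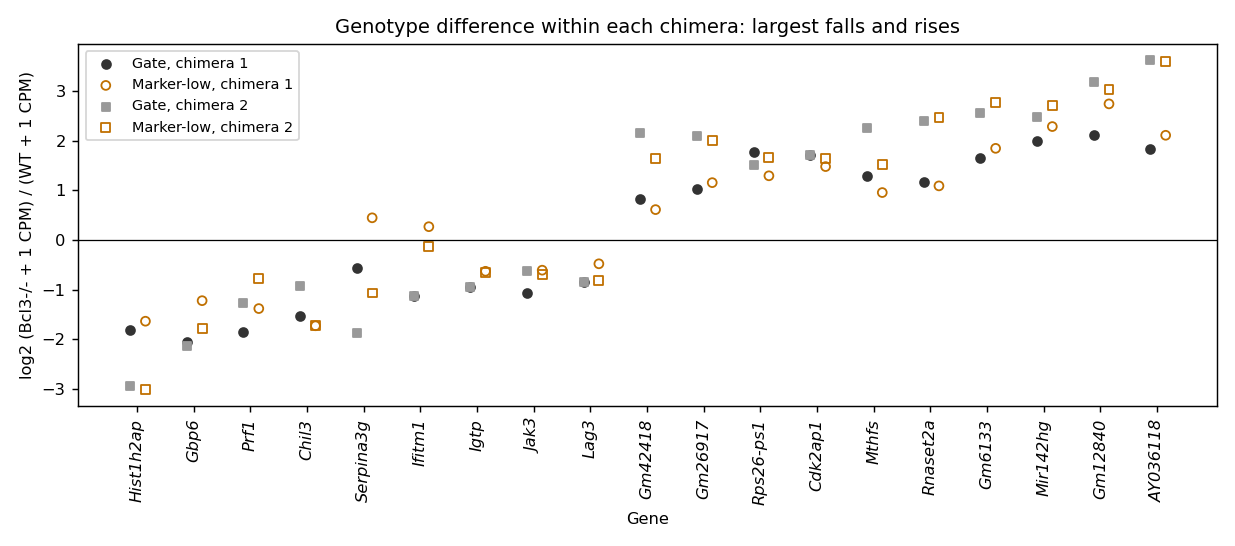
Log2 ratio of *Bcl3-/-* over WT (CPM + 1 in each, y axis) within each chimera for 9 of the 10 largest falls and for the 10 largest rises (x axis), in terminal effector cells (filled) and marker-low cells (open). Filled points of both chimeras lie on the same side of 0 for all 19 genes, which the choice of the genes required. The open points of *Ifitm1* and *Serpina3g* lie on either side of 0.

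The effector transcription factors were not called without the block. *Id2*, an inhibitor of E proteins that favours effector cells, was at 837 and 646 CPM in WT1 and WT2 and at 1146 and 1377 CPM in KO1 and KO2 (log2 fold change 0.75, adjusted p = 0.0611 from edgeR and 1.63e-09 with the block). With the block *Bhlhe40* (0.95) and *Klf2* (0.27) were higher as well, and *Tbx21* had a log2 fold change of 0.14 in both fits. Of 10 NK receptors tested, none was called without the block. With it, *Klrc1* (0.41) and *Klrc2* (0.61) were higher and *Klra3* (−1.49) was lower, and the 3′ end of *Klra3* is shared in full with a relative. Of 12 memory and quiescence genes, *Cxcr3* was called, and with the block *Ltb* was lower too (−0.79, adjusted p = 6.18e-11 from edgeR) and *Foxp1*, a quiescence factor, higher (0.51). *Ltb* was lower in *Bcl3-/-* members within each class of the marker sum, with a log2 ratio of −0.60 in chimera 1 and −0.75 in chimera 2 at a sum of 3 and of −0.89 and −1.01 at 6 to 8. *Id2* was higher within each class, at 0.40 and 1.15 for a sum of 3 and 0.66 and 0.78 for 6 to 8. None of 15 adhesion and migration genes was called without the block, and *Cxcr6* (−0.46), *Itgb7* (−0.38) and *Cd69* (−0.97) were lower with it. Of 6 inhibitory receptors and *Tox*, *Lag3* was called, joined by *Pdcd1* (−0.70) with the block.

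Whether the genotype difference in terminal effectors departs from that in marker-low CD8+ T cells was tested directly, as a class by genotype term with the library as a factor, over 10217 genes. By edgeR, the *Bcl3-/-* effect was higher in terminal effectors for 7 genes (0.0685%) and lower for 20 (0.196%), and the raw p was below 0.05 for 601. DESeq2 called 0 genes, with a raw p below 0.05 for 35. High marker sums were more frequent among *Bcl3-/-* members, as given above, and their part in these differences was not tested. *Ifitm1* had the largest fall of the 10 with the lowest adjusted p. It was at 102 CPM in the members of both WT libraries and at 46.4 and 46.5 CPM in those of KO1 and KO2, whereas marker-low cells held 113 (WT1), 63.7 (WT2), 137 (KO1) and 58.0 CPM (KO2). The difference of the effects was −1.23 on the log2 scale (standard error 0.15, adjusted p = 1.59e-09 from edgeR) and −0.48 without KO1 (adjusted p = 0.456). *Ltb* had a difference of −0.35 (adjusted p = 3.4e-07 from edgeR), *Ly6a* one of −0.30, *Ly6e* one of −0.30 and *Cxcr6* one of −0.31, and these 4 calls held in edgeR whichever library was left out.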

How the data were processed

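Cells came from 4 libraries, WT1, WT2, KO1 and KO2, made with the 10x Genomics 3′ kit (version 2). Per the labels, alignment to mm10 and counting were done by the authors with Cell Ranger 2.2.0, and the deposited matrices hold UMI counts without normalization, empty droplets included. The libraries held between 20358780 and 22922219 UMIs. A barcode was kept as a cell from 500 detected genes upward if no more than 10% of its UMIs were mitochondrial, doublets were not called, and intervals cover counting error only. The members, gene lists and tests were chosen with earlier results of these data known. Of 27998 gene identifiers, 27645 matched GENCODE vM21 (GRCm38), which gave positions. The numbers 1 and 2 pair the libraries, since both genotypes of a number come from the same animal. The deviations WT1 minus WT2 and KO1 minus KO2 correlated at 0.280 across 6640 genes, which are not independent.

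UMIs of the members were summed per library and compared by quasi-likelihood fits in edgeR 4.0.16 with TMM scaling, the filterByExpr filter and Benjamini-Hochberg adjustment at 0.05, without a block first and with the chimera as a replicate block beside it where the call changed. The 17 genes of the rule were left out of tests and adjustment. The fits were tested on simulated data, and no outcome of that is given here. CPM scale the summed UMIs of a class of cells to a common total, and folds use CPM + 1. Genes named are the 10 largest rises and falls between genotypes among called genes with at least 20 CPM that moved alike in both chimeras, the 15 highest and lowest by the least of the 4 ratios to marker-low cells at 50 CPM or more, the 10 lowest adjusted p of the interaction, the 10 most correlated with the marker sum, and up to 4 called or abundant genes of each list. Genes of the Y chromosome, *Xist* and the segments of T cell receptors and antibodies were kept out. Other genes named in the text were chosen after their values were seen. Some genes that these rules name are not reported here. Shared 3′ ends were found by blastn 2.17.0 of the last 300 bases at 97% identity. DESeq2 1.42.0, other marker sums, depths, filters and libraries left out were tried as alternatives. The alternative without barcodes shared between libraries was added after the data were seen.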

Additional observations from a re-analysis of the deposited data

Results flagged for a closer look

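The genotype effect differed between terminal effector and marker-low CD8+ T cells for 10 named genes, by the interaction term of edgeR's quasi-likelihood test (differences of log2 fold changes, with adjusted p of 5.28e-05 or lower). The differences were −1.23 for *Ifitm1*, −0.98 for *Serpina3g*, −0.68 for *Fcer1g*, −0.35 for *Ltb*, −0.31 for *Cxcr6*, −0.30 for *Ly6a*, −0.30 for *Ly6e*, −0.27 for *Ctla2a*, −0.24 for *Shisa5* and 1.24 for *Mzb1*. *Mzb1*, a plasma cell and B cell gene, was at 33.4, 13.9, 58.7 and 15.4 CPM in the members of WT1, WT2, KO1 and KO2 and its call was lost without KO1 (0.48, adjusted p = 0.997). *Ifitm1* was lost without KO1 as well, *Fcer1g* without WT2 (−0.27, adjusted p = 0.937) and *Ctla2a* without KO2 (−0.21, adjusted p = 0.0687). *Serpina3g* and *Shisa5* were called whichever library was left out. DESeq2 called none of the 10, with adjusted p of 1.00 for each and log2 differences of the same sign.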

How the results depend on the processing

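With 2 libraries per genotype, no share can pass a permutation test, and low transcripts rest on few UMIs in WT2. The 45 genes called between genotypes became 420 with the replicate block for chimera (the paired fit) and 233 with no filter on low counts, and between 60 and 173 with a library left out. The other alternatives gave 41 to 64, and the cause of these shifts was not tested. The difference in share, 9.51 percentage points, was 2.49 after thinning with a marker sum of 3, 14.4 among CD8+ T cells that passed every other criterion and 6.38 with *Klrg1* left out of the sum. Leaving out a library gave 7.29 to 11.7, and the replicate block left it at 9.51. For the interaction, DESeq2 called 0 of the 27 genes, and leaving out a library gave 21 to 28 calls. The 27 genes at least 1.5-fold apart from marker-low cells became 13 with cells of at least 4000 UMIs, 137 against all other cells, 55 against cells without a marker UMI, 9 at 2-fold, and 27 to 49 with a library left out. No direction of a named gene that was called reversed. Of the 20 largest rises and falls between genotypes, the block and the filter lost 0, DESeq2 3 and equal cells and UMIs 4.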

Other observations

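Further lists were compared between genotypes, where 2.61% of all tested genes were lower and 2.20% higher with the block. Of 11 glycolysis genes, none was called by edgeR without the block, 8 were lower in both chimeras, as were 28.7% of all tested genes, and *Pgk1* (log2 fold change −1.48), *Eno1* (−0.46), *Pkm* (−0.30) and *Ldha* (−0.30) were lower with it. *Pgk1* was at 178, 103, 69.8 and 32 CPM in WT1, WT2, KO1 and KO2. Of 14 S100, annexin and cytoskeleton genes, none was called without the block, and with it *S100a4* was higher (0.72) and *Anxa2*, *Lgals3* and *Crip1* were lower. Of 11 NF-kappaB and IkappaB genes, *Nfkb2*, which encodes the precursor of p52, a partner of Bcl-3, was called with the block only (−0.76, adjusted p = 0.0117 from edgeR). Of 11 cytokine receptors, none was called without the block, and *Il18rap* (0.38) and *Il21r* (1.13) were higher and *Il2rb* (−0.33) and *Ifngr1* (−0.38) lower with it. Of 7 immediate early genes, *Jun* was called, and *Zfp36* was higher with the block (1.15).

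Of 7 chemokine and cytokine genes, *Ccl5* was higher (0.31) and *Xcl1* lower (−2.85) with the block, and none was called without it. *Xcl1* was at 18.3, 3.67, 0 and 3.49 CPM, so its change rests on few UMIs. No gene on the lists of myeloid, B cell and NK cell markers was called without the block. The myeloid gene *Chil3*, which is not on them, fell without it (log2 fold change −1.35, adjusted p = 0.0143 from edgeR). With the block, the myeloid *S100a8* (0.43) and *S100a9* (0.85) and the B cell marker *Cd74* (0.33) were higher. *Fcer1g* and *Ncr1* of the NK cell list were lower with it. None of 2 erythroid and platelet genes was called in either fit. Of the 5 genes listed for CD4 and gamma delta T cells, 2 were among the genes kept here. Neither was abundant enough to be tested, and nothing was measured for the rest.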
